A study of Mus musculus with 2 samples.

Results

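The cluster of miR-221 and miR-222 is a pair of microRNA (miRNA) genes, Mir221 and Mir222, that lie side by side on the mouse X chromosome and carry the same seed. They are 2 of 2202 miRNA genes counted in the deposited files. They were matched by gene identifier to their GENCODE M21 names, and they were chosen by their position, their seed and the observation that their ratio differed between the libraries. That ratio and the levels behind it are therefore given as descriptions, without a test. The material was RNA below 30 nt from the hippocampus of females, 18 to 20 months old, of the strain B6CASTF1/J. Such animals are first-generation hybrids of a B6 laboratory parent and a wild-derived CAST parent. Each of the 2 libraries is labelled as a biological replicate, and both form a single untreated group with no second condition. The tissue records carry different animal numbers but the same donor record, so the spread between the libraries may be partly technical. The labels speak of a layer of the hippocampus without saying which.

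MicroRNAs are cut from hairpins in longer transcripts, and either arm of a hairpin can be loaded into the silencing complex. The bases called the seed, 2 to 8 counted from the 5′ end, pair with sites in messenger RNAs, so miRNAs that share a seed share many targets. The miR-221 and miR-222 family is known for acting on Cdkn1b, which encodes the cell cycle inhibitor p27, and on Kit, which encodes a receptor of stem, mast and endothelial cells. It is studied in endothelium, vascular smooth muscle, blood cell formation and glioma, and it is induced by nerve growth factor in rat PC12 cells.

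The sequences show what the pair shares and where the genes part. Mature sequences from RefSeq (GRCm38.p6) are written 5′ to 3′ with the seed in capitals, and miR-1928 is included as the only other mature miRNA of the 1738 in that table with the seed GCUACAU.
miR-221-3p: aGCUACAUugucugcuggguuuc
miR-222-3p: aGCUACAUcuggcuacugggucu
miR-1928: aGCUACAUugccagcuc
The 3p arms of miR-221 and miR-222 are both 23 nt long and identical over their first 8 bases. After that shared start, 3 more positions carry the same base, which gives 11 identical positions of 23.

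The hairpins, again 5′ to 3′ on the transcribed strand, are shown with the 3p arm in capitals because the deposited counts are made per hairpin and sum both arms.
Mir221: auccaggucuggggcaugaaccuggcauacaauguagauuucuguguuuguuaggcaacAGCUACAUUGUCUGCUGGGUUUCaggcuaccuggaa
Mir222: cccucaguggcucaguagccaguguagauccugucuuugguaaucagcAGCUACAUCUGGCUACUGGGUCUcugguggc
Mir221 (ENSMUSG00000065422.1) lies at chrX:19146294-19146388 and Mir222 (ENSMUSG00000065471.1) at chrX:19146893-19146971 in mm10, both on the minus strand. The hairpins are 504 bases apart, and the minus strand places Mir222 first in the direction of transcription. In GENCODE M21 no other gene overlaps the span, so neither hairpin is intronic or exonic to a host gene annotated there. The next annotated gene upstream on the strand is the noncoding processed transcript Gm14636 (chrX:19156981-19167241), whose nearer end lies 10009 bases from Mir222. The longest run shared by both hairpins is 9 bases, and each 3p arm, as well as its first 18 bases, occurred in 1 gene of the 141767 GENCODE M21 transcripts. The 5p arms, other stretches of the hairpins and the whole genome were not searched here. By RNAfold, the hairpin of Mir221 had a predicted folding energy of -42.8 kcal/mol and 47.4% GC, and that of Mir222 had -40.7 kcal/mol and 54.4% GC.

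Because both members read the same seed match, the sites they could pair with are shared too. The complement of the seed, ATGTAGC, was searched on the sense strand in the longest annotated 3′ UTR of the named targets Cdkn1b and Kit. It occurred at 1 place in Cdkn1b and 2 places in Kit. They are given here in DNA letters, with the match in capitals and followed in each case by an A.
Cdkn1b: tctaaaagcattggATGTAGCa
Kit, first match: atgatgggagatatATGTAGCa
Kit, second match: ttgtaaatattgaaATGTAGCa
The same 7 letters were present in 19.0% of 3930 genes whose longest 3′ UTR was 2000 to 4000 bases long, and 2.16% of those held them 2 or more times. A match describes letters in the reference. Messenger RNA was not analysed here.

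By counted reads, both members were among the well-expressed miRNA genes of these libraries, with Mir221 the higher in each library. Replicate 1 held 2255838 sense counts in miRNA genes and replicate 2 held 4521208. Mir221 had 22648 counts in replicate 1 and 22907 in replicate 2. Divided by the library's sense counts and multiplied by 1000000 (CPM), this was 10040 CPM (exact 95% Poisson interval 9909 to 10171) in replicate 1 and 5067 CPM (5001 to 5133) in replicate 2. Its near-equal raw counts thus stood for levels that differed by almost a factor of 2, because replicate 2 was the deeper library.

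Mir222 had 11841 counts in replicate 1 and 4845 in replicate 2, or 5249 CPM (5155 to 5344) and 1072 CPM (1042 to 1102). It was low in replicate 2 both in raw counts and after scaling. Over both libraries the mean was 7553 ± 3517 CPM (SD, n = 2) for Mir221 and 3160 ± 2954 CPM (SD, n = 2) for Mir222. The SD was 46.6% of the mean for Mir221 and 93.5% for Mir222. A mature miRNA gives 1 read per molecule whatever the hairpin's length, so these levels were not divided by length. Adapter ligation can favour one sequence over another, so the ratio of members is one of reads. Intervals are for counting error only and treat reads as independent. Ligated and amplified reads are not independent molecules, so the intervals can be too narrow.

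**Figure D1:**
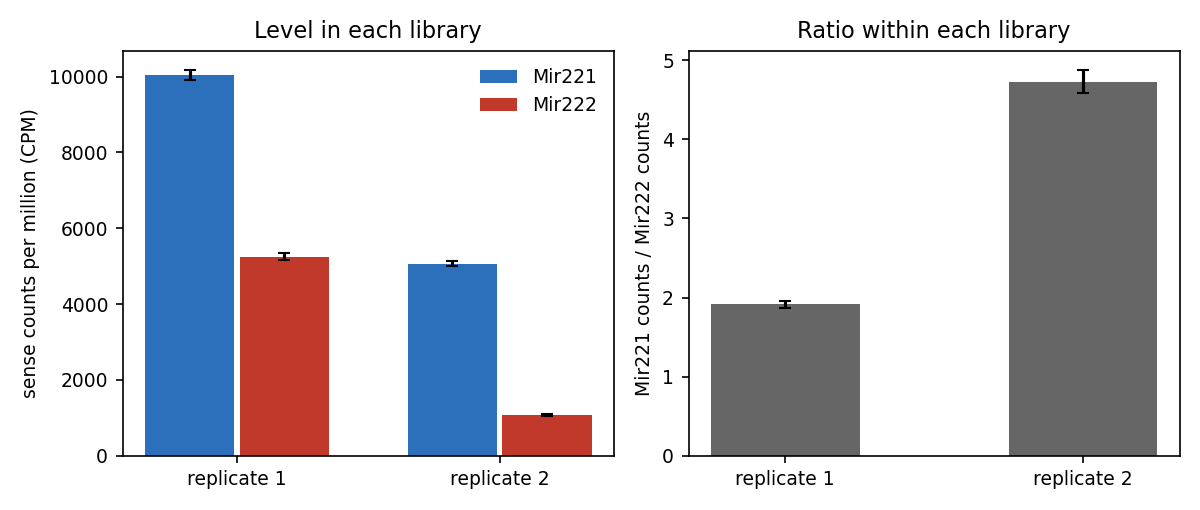
Left, levels of Mir221 (blue) and Mir222 (red) in CPM in each library, and right, Mir221 counts divided by Mir222 counts in each library; error bars are exact 95% intervals for counting error. Mir222 stands at 5249 and 1072 CPM, and the ratio at 1.91 and 4.73.

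By rank among all genes, Mir221 was 21st in replicate 1 and 40th in replicate 2, and Mir222 was 40th and 87th. Together the pair took 1.53% of the sense counts in replicate 1 and 0.614% in replicate 2. Neither hairpin had an antisense count in either library. Their unstranded counts equalled their sense counts, so strand assignment left the members' counts as they were. The third gene with this seed, Mir1928 on chromosome 1, had no count in either library, which allows a level of up to 1.33 CPM in replicate 1 and 0.664 CPM in replicate 2. Among the miRNAs of that table, the counted reads of this seed therefore came from Mir221 and Mir222. Their counts also include any reads of the 5p arms, and miR-221-5p has another seed. Summed over the pair, the level was 15289 CPM in replicate 1 and 6138 CPM in replicate 2, 2.49-fold lower (2.45 to 2.53).

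The make-up of the pair differed between the libraries. Mir221 counts were 1.91 times Mir222 counts in replicate 1 (exact Clopper-Pearson 95% interval 1.87 to 1.96) and 4.73 times in replicate 2 (4.58 to 4.88). Put as a share, Mir222 gave 34.3% of the pair's counts in replicate 1 (33.8 to 34.8) and 17.5% in replicate 2 (17.01 to 17.9). This ratio is formed within a library and does not depend on how libraries are scaled. It was one of the values by which the members were chosen, and there is 1 library per replicate, so no test was made.

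Between libraries, Mir221 was 1.98-fold lower in replicate 2 (1.95 to 2.02), a log2 ratio of -0.99. Mir222 was 4.90-fold lower (4.74 to 5.07), a log2 ratio of -2.29. Averaged over both libraries, 495 genes reached 1 CPM. A 2-fold threshold was met by 90 of them that were lower in replicate 2, which is 18.2%, and by 38 that were higher, which is 7.68%. Mir222 was among the former and Mir221 stood just short of the threshold, which its counting interval spans. The shares give the background against which the members' values stand, and since the members were chosen on this contrast nothing is read from their own count. The median log2 ratio of all 495 genes was -0.19 and the median absolute log2 ratio was 0.51.

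Of those 495 genes, 91 others had a log2 ratio as low as that of Mir221 or lower, and 19 others were as low as Mir222 or lower. Among the 96 genes whose mean reached 1000 CPM, a limit taken after values were known, 13 others were as low as Mir221 and 0 as low as Mir222. Mir222 thus had the lowest log2 ratio of these 96 genes, but it was chosen on this contrast, so nothing is read from that place. Below the limit, Mir543, at a mean of 670 CPM, had a log2 ratio of -2.50. With edgeR's TMM factors the median of all genes moved up by 0.12 and with DESeq2 size factors by 0.19. The fold by which Mir222 was lower then became 4.50 and 4.29, and that for Mir221 1.82 and 1.74.

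**Figure D2:**
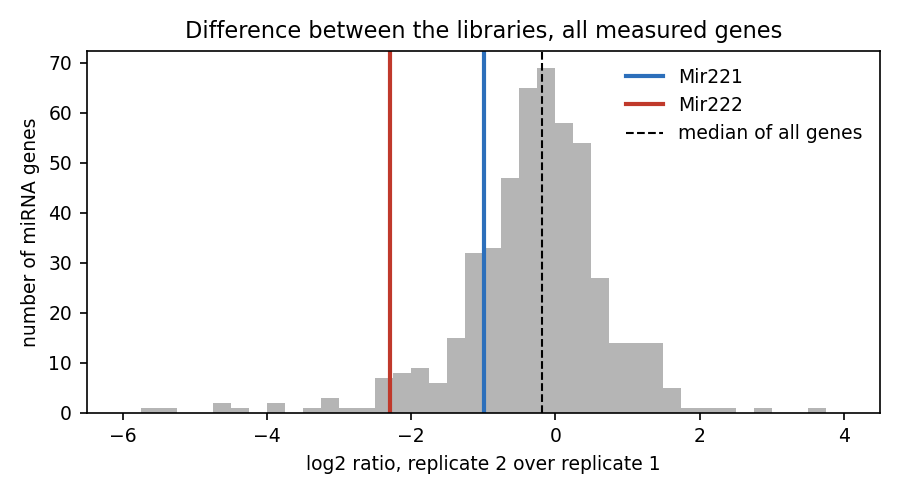
Number of miRNA genes (of 495 whose mean reached 1 CPM) by log2 ratio of replicate 2 over replicate 1, in bins of equal width. The dashed line marks the median at -0.19, the blue line Mir221 at -0.99 and the red line Mir222 at -2.29, in the left tail.

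Hairpins that lie close together on a strand are often cut from a single transcript, so other neighbouring genes show how far such partners part between these libraries. All same-strand pairs with starts within 1000 bases and both genes at 10 CPM or above on average were taken, which gave 76 pairs over 99 genes; pairs from the same cluster share genes. The quantity is the absolute difference between the log2 ratios of both partners. For Mir221 and Mir222, whose starts are 599 bases apart, it was 1.31, a 2.47-fold shift in their ratio. Of the 75 other pairs, 13 (17.3%) differed by at least as much, and the median was 0.68 (quartiles 0.36 and 1.07).

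The 5 pairs that parted furthest went in no common direction. Mir666 and Mir543, in the imprinted cluster of chromosome 12, had log2 ratios of 0.77 and -2.50. Mir144 and Mir451a, known from red blood cells, had 1.48 and -0.57. Mir3093 and Mir9-1 followed with -0.33 and 1.64, from levels of 6.21 to 45.2 CPM. Mir9-2 and Mir9-3 are further copies of Mir9-1, and reads that copies share are in no count, so its level can be understated. Mir497 and Mir195a had 0.51 and 2.45, and Mir200a and Mir200b, known from epithelia, -1.79 and 0.12. In the 10 other pairs whose 4 levels all reached 1000 CPM, the difference ran from 0.12 to 0.93, beside 1.31 for Mir221 and Mir222. That limit was set after the values were seen and lies just below the 1072 CPM of Mir222 in replicate 2. It leaves out Mir497 and Mir195a, which differed by 1.94 and whose lowest level was 704 CPM. The members were chosen on this difference, so nothing is read from their place beside the 10 pairs. These 10 pairs again share genes.

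**Figure D3:**
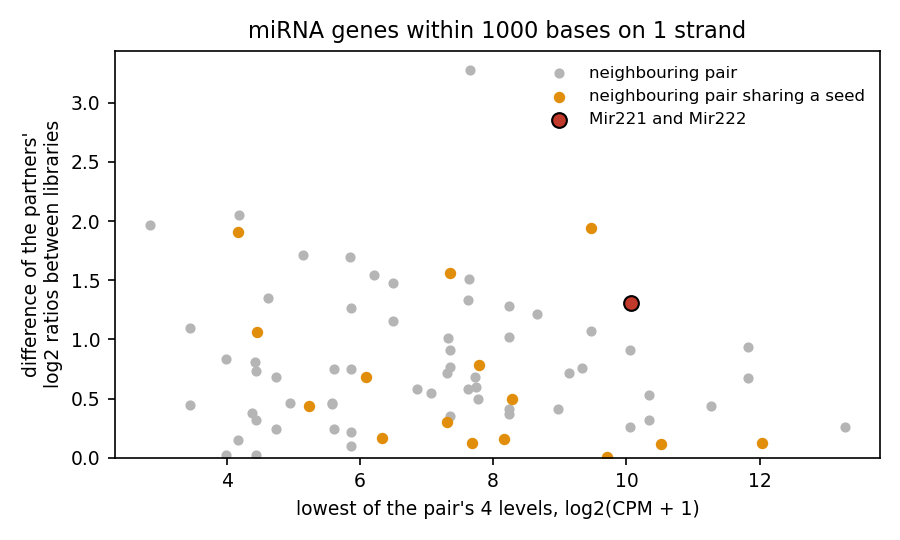
Each point is a pair of miRNA genes on the same strand with starts within 1000 bases; the x axis is the lowest of the pair's 4 levels as log2(CPM + 1) and the y axis the absolute difference of the partners' log2 ratios between libraries. Mir221 and Mir222 (red) lie at 1.31, with pairs that share a seed in orange and the others in grey.

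Other neighbours that share a seed parted as well. In 15 other neighbouring pairs, some arm of each gene, not necessarily the more abundant one, had the same seed. Their median difference was 0.44, with a range of 0.011 to 1.94, and 3 of them differed by at least 1.31, namely Mir497 with Mir195a, Mir200a with Mir200b and Mir376c with Mir376b. The 60 pairs that shared no seed had a median of 0.700, and 10 of them differed by as much. Pairs of either kind include numbered gene copies, such as Mir29b-1, Mirlet7f-2 or Mir24-1. Reads that copies share map to several places and are in no gene's count, so such ratios rest on the other reads. Mir212 and Mir132, responders to neuronal activity, are a same-seed pair named after their values were seen. Mir212 stood at 543 and 286 CPM and Mir132 at 38949 and 18329 CPM in replicates 1 and 2. Their log2 ratios were -0.93 and -1.09, close to the -0.99 of Mir221, so the ratio within that pair moved little while both levels were lower in replicate 2. In the X-linked same-seed pair, Mirlet7f-2 and Mir98 had log2 ratios of 0.03 and 0.15.

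The other X-linked miRNA genes lay close to the background of all genes. Each cell of a female silences most of a single X chromosome, so X-linked miRNAs are read mainly from the other copy. The files list 142 X-linked miRNA genes, and 40 besides Mir221 and Mir222 averaged at least 1 CPM. Of these 40, 7 (17.5%) were lower by 2-fold or more in replicate 2 and 3 (7.50%) were higher, beside 18.2% and 7.68% of all genes. The 3 were Mir5132, Mir504 and Gm22650, whose levels lay between 0.887 and 40.03 CPM. The median log2 ratio of the 40 was -0.15 and that of the 453 autosomal genes was -0.19. With the members included it was -0.17, and it turned to 0.025 with DESeq2 size factors, where that of all genes was 0.0026.

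By mean level Mir221 was the second and Mir222 the sixth of the X-linked genes. Mir652 led at 7705 ± 1494 CPM (SD, n = 2), with 6649 CPM in replicate 1 and 8762 in replicate 2. Mir98, a let-7 family member, followed Mir221 at 6972 ± 522 CPM, then Mir361 at 4662 ± 1004 CPM and Mirlet7f-2 at 4240 ± 53.6 CPM. The 2 values of Mir221 enclosed those of Mir652 and Mir98, so the order of these 3 is not settled beyond their spread. Mir652, Mir98 and Mir361 had log2 ratios from 0.15 to 0.44 and Mirlet7f-2 of 0.03, whereas Mir221 and Mir222 were lower in replicate 2. The pair made up 33.7% of all X-linked sense counts in replicate 1 and 16.0% in replicate 2. X-linked genes without the pair summed to 30041 and 32262 CPM.

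**Figure D4:**
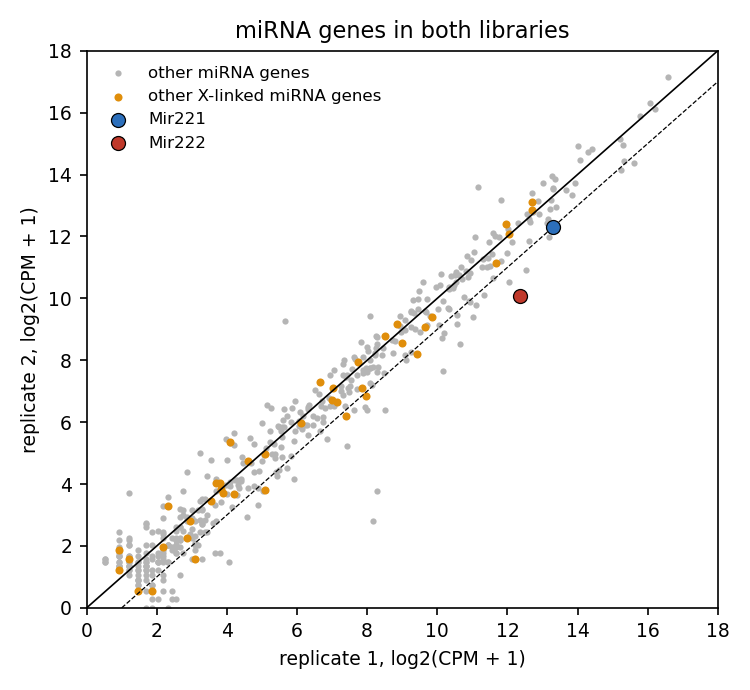
Level of each of 495 miRNA genes as log2(CPM + 1) in replicate 1 (x axis) and replicate 2 (y axis); the solid line marks equal levels and the dashed line 2-fold lower in replicate 2. Mir221 (blue) lies at the dashed line and Mir222 (red) below it, while the other X-linked genes (orange) spread around the solid line.

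The genes most like each member were found by Euclidean distance in log2(CPM + 1) over both libraries, which weighs level and difference together. With 2 libraries this is likeness in 2 numbers only. Nearest to Mir221 was Mir92b (distance 0.20), at 8970 CPM in replicate 1 and 5481 in replicate 2. It was followed by Mir770 (0.29), Mir100 (0.35), Mir433 (0.56) and Mir487b (0.59). Of these, Mir100 had a lower log2 ratio than Mir221, at -1.21, and Mir433 the highest, at -0.19.

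Nearest to Mir222 was Mir874 on chromosome 13 (distance 0.060), at 5172 CPM in replicate 1 and 1114 in replicate 2, with a log2 ratio of -2.21. The next were Mir187 (0.57), Mir21a (0.87), Mir342 (0.98) and Mir423 (1.04). Mir21a stood at 5880 and 1945 CPM and Mir187 at 4221 and 1486 CPM. All 5 were lower in replicate 2, with log2 ratios from -2.21 to -0.92. None of the 10 genes named as nearest lies on chromosome X.

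The cluster is known from several cell types, and lists of their miRNAs are set beside it. In a bulk sample, fewer cells of a type and less RNA per cell cannot be told apart. The lists hold no member of the cluster and were chosen with earlier results known. The endothelial and mural list summed to 29745 CPM in replicate 1 and 38438 in replicate 2. Of its 9 genes, 4 averaged at least 1 CPM, 0 passed 2-fold in either direction, and the median log2 ratio of the 4 was 0.34. Among all genes, 18.2% were lower and 7.68% higher, with a median of -0.19. Mir126a, the defining endothelial miRNA, stood at 21890 and 29026 CPM, Mir143 of smooth muscle at 7538 and 9071 CPM, and Mir145a, its neighbour, at 267 and 255 CPM. Mir126b, Mir145b and Mir199a-1 had no count. Reads that Mir199a-1 shares with its copy Mir199a-2 would be in no gene's count, so its 0 does not show absence. What part endothelial and mural cells had in the cluster's difference was not tested.

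The microglia and leukocyte list summed to 10703 CPM in replicate 1 and 5304 in replicate 2, but its members did not go one way. Of its 8 genes that averaged at least 1 CPM, 2 were lower by 2-fold or more, 0 were higher, and the median log2 ratio was -0.28, beside 18.2% of all genes lower and a median of -0.19. Those 2 were Mir21a, at 5880 and 1945 CPM the largest member, and Mir146b, at 15.5 and 1.77 CPM. Mir342 stood at 3090 and 1632 CPM and Mir150 of lymphocytes at 823 and 752 CPM. The defining myeloid and leukocyte gene Mir142 stood at 157 and 116 CPM and Mir223 at 12.9 and 15.3 CPM, while Mir142b had no count. Mir146 (701 and 798 CPM) and Mir155 (24.4 and 43.8 CPM), named after their values were seen, were higher in replicate 2. The part of these cells in the cluster's difference was not tested.

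The choroid plexus and ependyma list was lower in replicate 2 as well, with sums of 3389 and 1586 CPM. Of its 10 genes that averaged at least 1 CPM, 6 were lower by 2-fold or more and 0 higher, with a median log2 ratio of -1.03. Beside this, 18.2% of all genes were lower and 7.68% higher, with a median of -0.19. Of the 6, Mir211 had 4 counts in each library, so its ratio came from the depth difference alone. Mir34c of ciliated cells stood at 1597 and 366 CPM, Mir204 at 1034 and 799.6 CPM and Mir1298 at 229 and 136 CPM. The list did not go one way. Mir449a (55.4 and 63.9 CPM) and Mir200b (78.5 and 85.4 CPM), named after their values were seen, were higher in replicate 2. Beside the -2.29 of Mir222, log2 ratios of the list's 10 measured genes ran from -2.13 for Mir34c to 0.20 for Mir449a. The whole list summed to 3389 CPM in replicate 1, beside 5249 CPM for Mir222. Such a sum does not measure how much Mir222 these cells hold. Their part in the cluster's difference was not tested.

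Of the remaining lists, the erythroid list, of interest because the cluster acts on Kit in red cell precursors, summed to 138 and 136 CPM. Of its 3 genes that averaged at least 1 CPM, 0 were lower by 2-fold or more and 1, Mir144, was higher. In it, Mir451a stood at 105 and 71.0 CPM, Mir144 at 17.3 and 48.9 CPM and Mir486 at 16.0 and 15.9 CPM. The oligodendrocyte list summed to 6829 and 5395 CPM, led by Mir338 (4039 and 2844 CPM) and Mir219a-2 (2783 and 2546 CPM), with Mir219a-1 at 6.65 and 4.20 CPM. Of these 3 genes, 0 passed 2-fold in either direction, and their median log2 ratio was -0.51. The neuron-enriched list had counts for all 8 genes and summed to 92635 and 65456 CPM. Of those 8, 1, Mir132, was lower by 2-fold or more and 0 were higher, with a median log2 ratio of -0.20. The background for each list of this paragraph is 18.2% of all genes lower and 7.68% higher, with a median of -0.19. Mir127 stood at 40253 and 31736 CPM and Mir137 stood at 10105 and 11969 CPM.

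**Figure D5:**
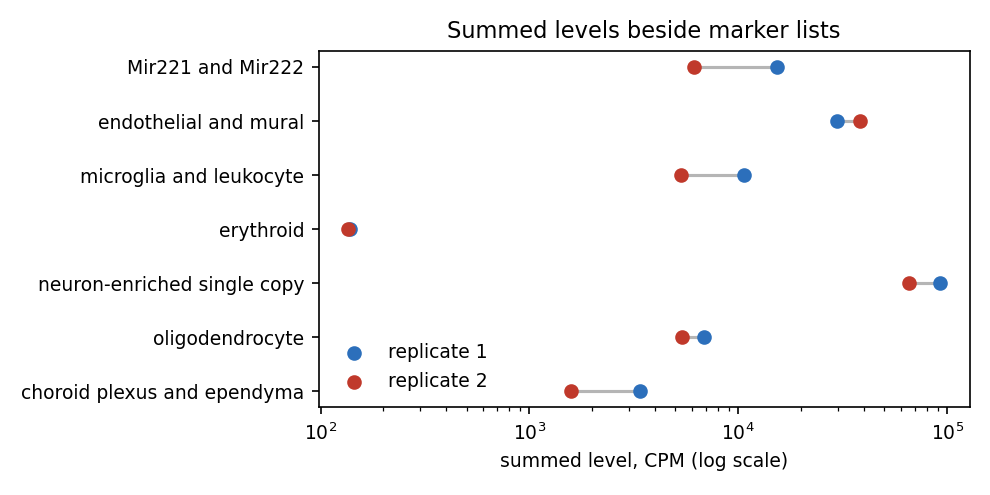
Summed level in CPM (log axis) of Mir221 and Mir222 and of each marker list, in replicate 1 (blue) and replicate 2 (red). The pair runs from 15289 to 6138 CPM, the microglia, choroid, neuron-enriched and oligodendrocyte sums also lie lower in replicate 2, the erythroid sums nearly coincide, and the endothelial and mural sum lies higher.

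Facts of the libraries that bear on these levels differed too. The unmapped share of all reads was 29.0% for replicate 1 against 11.2% for replicate 2. Multimapping reads, which are outside every gene's count, made up 36.2% against 47.9%. Across 418 genes with a hairpin in the RefSeq table, Spearman's rho between hairpin GC content and the log2 ratio was -0.14, a weak relation given as a description. The part of these differences in the members' values was not tested.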

How the data were processed

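The authors deposited a file of raw read counts for each library, by miRNA gene, with unstranded, sense and antisense columns after 4 rows of read totals. Those rows were kept out of all library sizes. They held 69.8% of the reads in replicate 1 and 62.8% in replicate 2. Build mm10 with GENCODE M21 was used, per the file headers in the deposited README files. For aligner and counter, no source used here gives a name. The column order was read from the values.

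Sense counts were scaled to CPM on the sum over 2202 genes (Python 3.11.15, scipy 1.17.1). Log2 ratios added 0.5 counts, log2 levels 1 CPM, and genes averaging at least 1 CPM were kept. A count of 0 allows up to 3 counts. Folding used RNAfold 2.7.2. With 1 library per replicate no test was made. The fold and pair calculations were checked on simulated counts. Members and lists were chosen with earlier results of these data known. Named genes were the members, same-seed genes, the 5 nearest genes, the 5 top X-linked genes, the 5 pairs furthest apart and the top 3 per list. Others were named after their values were seen. Alternatives used edgeR 4.0.16 and DESeq2 1.42.0 scaling factors, other columns, totals and filters. RefSeq held hairpins for 968 of 2202 genes by symbol.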

Additional observations from a re-analysis of the deposited data

How the results depend on the processing

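No paired analysis was possible because the labels give 1 group. Depth limits little here, since each member had at least 4845 counts; the number of libraries, 2, limits more. The ratio of Mir221 to Mir222 in each library was the same with unstranded counts. For Mir221 the log2 ratio between libraries was -0.87 with TMM, -0.80 with DESeq2 size factors and -0.89 with a total that leaves out the 20 most abundant genes. For Mir222 these values were -2.17, -2.10 and -2.19. Each scaling adds a constant to every gene's log2 ratio. With all reads as the total, the mean levels were 2455 counts per 1000000 reads for Mir221 and 991 for Mir222. The counted share of all reads was 30.2% in replicate 1 and 37.2% in replicate 2. With this total, both members' folds between libraries are therefore smaller than with any scaling above. The mean levels left at 1 library were 5067 and 10040 CPM for Mir221 and 1072 and 5249 CPM for Mir222. Genes past 2-fold numbered 73 lower and 43 higher with TMM, 68 and 44 with DESeq2 size factors, and 74 and 42 without the 20 most abundant genes in the total, against 90 and 38. They were 39 lower and 14 higher at a mean of 10 CPM or more, and 180 and 108 with no filter beyond 1 count, where fewer or more genes enter. The median log2 ratio of X-linked genes, -0.17 with the members, changed sign to 0.025 with DESeq2 size factors, where that of all genes was 0.0026. Neighbouring pairs that differed at least as much as Mir221 and Mir222 numbered 60 of 339 within 10000 bases, 7 of 44 at a mean of 100 CPM or more, and 7 of 51 with unstranded counts, shares of 17.7%, 15.9% and 13.7%.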
